A study of Macaca mulatta with 161 samples.

Results

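PRDM14, SOX15, ZSCAN10, UTF1, DPPA2 and L1TD1 are 6 genes of the pluripotent cells of the mammalian embryo, described here across single inner cells of rhesus monkey blastocysts. They were chosen by name, with their levels in these cells already known, and all 6 have a row among the 16049 genes of the table. All 6 also passed the filter used for comparisons across genes, a mean FPKM of at least 1 over all cells, as did 9781 genes in all. FPKM is a level scaled to transcript length and to the mapped fragments of a cell. The material was 161 single cells of blastocysts made by fertilising oocytes of hormone-stimulated females and grown in culture, and each cell gave 1 library. Inner cells were recognised by the absence of the membrane dye PKH26, which had been put on the outer cells of the intact blastocyst. The cells came from the early blastocyst (44 cells, about embryonic day 5), the middle blastocyst (39 cells, about day 5.5), the late blastocyst (52 cells, about day 6) and the hatching blastocyst (26 cells, about day 7). No embryo or female is named behind a cell, so each stage counts as 1 sample, and the number of embryos in it is not known. Cells are not replicates of a stage, and every value below describes these cells without a test.

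PRDM14, a zinc finger protein with a PR domain, keeps pluripotent cells from differentiating and acts in germ cell specification. In mouse embryonic stem cells it holds down FGF receptor and DNA methyltransferase genes together with CBFA2T2 and the Polycomb repressive complex. SOX15 is an HMG-box factor of the SOX family, and ZSCAN10 is a SCAN-domain zinc finger protein that acts with POU5F1 and SOX2 in mouse embryonic stem cells. UTF1 is a chromatin protein bound at developmental genes in mouse embryonic stem cells, and DPPA2 is a SAP-domain protein that works with DPPA4 on chromatin. L1TD1 descends from the first open reading frame of a LINE retrotransposon and binds RNA together with LIN28A in human pluripotent cells. It is mostly a cytoplasmic protein, so the 6 genes are not all nuclear factors.

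Recovered reads had a median of 12.02 M per cell, with a range of 3.15 to 30.1 M, and the stage medians ran from 11.2 to 13.03 M. At an FPKM of 1 a cell of median depth held 26.1 reads of PRDM14, 16.9 of SOX15, 29.6 of ZSCAN10, 13.8 of UTF1, 16.1 of DPPA2 and 42.1 of L1TD1, so that an FPKM of 1 was used as the mark of detection. Each cell was also placed by its NANOG level (an epiblast factor) and its SOX17 level (a primitive endoderm factor), as log2(NANOG FPKM + 1) minus log2(SOX17 FPKM + 1). Cells at 2 or more are called NANOG-led, cells at -2 or less SOX17-led, and the others in between. These are ranges of 2 genes and not cell types. All 44 early cells and 38 of 39 middle cells were NANOG-led, and 1 middle cell was in between. The late cells split into 29 NANOG-led cells (55.8%, exact Clopper-Pearson 95% interval 41.3% to 69.5%), 7 in between and 16 SOX17-led cells (30.8%, 18.7% to 45.1%). The hatching cells split into 19 NANOG-led (73.1%, 52.2% to 88.4%) and 7 SOX17-led cells (26.9%, 11.6% to 47.8%). The intervals allow for the number of cells counted and for nothing else, and cells of a shared embryo would make them wider. Within 1 log2 unit of a boundary lay 2 early, 2 middle, 9 late and 0 hatching cells.

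ZSCAN10 was the member with the clearest difference between stages, being close to 0 in early and middle cells and abundant in many late and hatching cells. The lowest, median and highest FPKM were 0, 0 and 11.98 in early cells, 0, 0 and 5.61 in middle cells, 0, 1.28 and 130 in late cells, and 0, 74.3 and 144 in hatching cells. It was detected in 5 of 44 early cells (11.4%, 3.79% to 24.6%), 2 of 39 middle cells (5.13%, 0.63% to 17.3%), 26 of 52 late cells (50.0%, 35.8% to 64.2%) and 19 of 26 hatching cells (73.1%, 52.2% to 88.4%). The 5 early cells that held it lay at 6.38 to 11.98 FPKM and the others at 0.32 or less. ZSCAN10 was therefore present in a few early cells at a level well clear of the rest, and at 0 in 31 of the 44.

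PRDM14 was found in every stage, with a wide spread between cells. Its lowest, median and highest FPKM were 0.06, 23.4 and 220 in early cells, 0.08, 12.1 and 348 in middle cells, 0, 21.9 and 364 in late cells, and 0.42, 89.5 and 216 in hatching cells. It was detected in 36 of 44 early cells (81.8%, 67.3% to 91.8%), 28 of 39 middle cells (71.8%, 55.1% to 85.0%), 34 of 52 late cells (65.4%, 50.9% to 78.0%) and 19 of 26 hatching cells (73.1%, 52.2% to 88.4%). The 8 early cells below an FPKM of 1 reached at most 0.71, and the next early cell stood at 3.93. Early and middle cells thus included NANOG-led cells with almost no PRDM14, beside others above 100 FPKM.

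SOX15 was detected in every early and middle cell, at widely differing levels in middle cells, and was split in the later stages. Its lowest, median and highest FPKM were 46.3, 169 and 437 in early cells, 5.69, 122 and 526 in middle cells, 0.13, 107 and 566 in late cells, and 0.20, 110 and 380 in hatching cells. All 44 early and all 39 middle cells held it, against 42 of 52 late cells (80.8%, 67.5% to 90.4%) and 24 of 26 hatching cells (92.3%, 74.9% to 99.1%). The medians of the 4 stages lay close together while the lowest values differed by orders of magnitude.

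UTF1 had its lowest levels in middle and late cells and its highest in hatching cells. The lowest, median and highest FPKM were 0, 8.92 and 44.8 in early cells, 0, 2.38 and 22.9 in middle cells, 0, 1.84 and 31.6 in late cells, and 0, 39.7 and 109 in hatching cells. It was detected in 36 of 44 early (81.8%, 67.3% to 91.8%), 27 of 39 middle (69.2%, 52.4% to 83.0%), 28 of 52 late cells (53.8%, 39.5% to 67.8%) and 20 of 26 hatching cells (76.9%, 56.4% to 91.0%). All 20 hatching cells that held UTF1 were at an FPKM of 5 or more, which 7 of 39 middle cells reached.

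DPPA2 differed least between stages, with mean log2(FPKM + 1) of 2.91, 3.01, 2.88 and 3.03. Its lowest, median and highest FPKM were 0, 7.78 and 15.3 in early cells, 0.67, 7.63 and 19.01 in middle cells, 0, 8.90 and 20.5 in late cells, and 0.08, 11.4 and 19.5 in hatching cells. It was detected in 42 of 44, 38 of 39, 45 of 52 and 23 of 26 cells in that order of stages, and no cell exceeded 20.5 FPKM.

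L1TD1 was the member detected in the most cells. Its lowest, median and highest FPKM were 58.5, 204 and 382 in early cells, 55.6, 152 and 280 in middle cells, 15.8, 98.5 and 190 in late cells, and 1.00, 127 and 195 in hatching cells. It reached an FPKM of 1 in every early, middle and late cell and in 25 of 26 hatching cells, the remaining cell standing at 0.999. By median FPKM in early cells the order was L1TD1, SOX15, PRDM14, UTF1, DPPA2 and ZSCAN10. UTF1 and DPPA2, neighbours in that order at mean log2(FPKM + 1) of 2.96 and 2.91, differed by far less than their SDs over cells of 1.63 and 0.90.

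**Figure D1:**
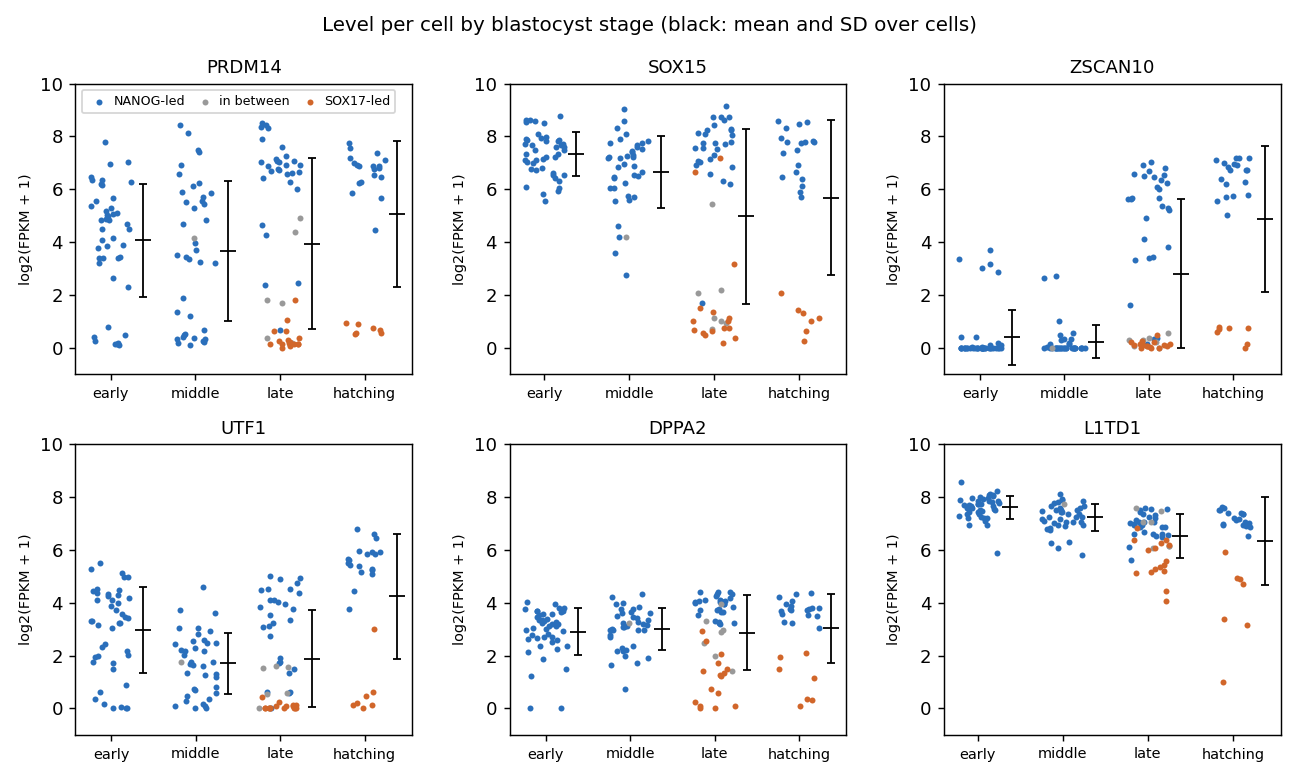
Level of the 6 genes in each of the 161 cells, as log2(FPKM + 1) on the vertical axis, by blastocyst stage on the horizontal axis, coloured by range (NANOG-led, in between, SOX17-led), with black marks for the mean and SD over the cells of a stage. All 44 early and 38 of 39 middle cells are NANOG-led, and the low late and hatching cells of SOX15, ZSCAN10 and PRDM14 are mostly SOX17-led or in between.

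Stages are compared by the difference of the mean log2(FPKM + 1), a scale that understates differences of low genes, and a difference of at least 1 is counted. In middle minus early cells, UTF1 was the only member past that size, at -1.25 (1.71 ± 1.15 in middle and 2.96 ± 1.63 in early cells, mean and SD over cells), and 3.61% of the 9781 genes were lower by as much. UTF1 was at -0.63 with the higher title numbers alone and at -0.57 with a pseudocount of 10. Late minus middle cells gave ZSCAN10 2.58 (2.80 ± 2.83 and 0.23 ± 0.61) and SOX15 -1.68 (4.98 ± 3.32 and 6.66 ± 1.37), where 3.95% of genes were higher and 5.82% lower by at least 1. SOX15 was at -0.22 without SOX17-led cells, -0.85 at a pseudocount of 10, -0.19 by the median over cells and -0.04 by the log2 of the mean FPKM. Hatching minus late cells gave UTF1 2.38 (4.25 ± 2.36 and 1.88 ± 1.84), ZSCAN10 2.08 and PRDM14 1.11, and 7.26% of genes were higher by at least 1. PRDM14 was at 0.58 with a pseudocount of 10 and at 0.12 by the log2 of the mean FPKM. Of these differences, only that of UTF1 between hatching and late cells exceeded the larger of the SDs.

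Over the whole span, hatching minus early, ZSCAN10 was higher by 4.48 (4.88 ± 2.75 in hatching and 0.40 ± 1.03 in early cells) and UTF1 by 1.29, among 11.3% of genes higher by at least 1. SOX15 at -1.65 (5.68 ± 2.94 and 7.33 ± 0.82) and L1TD1 at -1.29 (6.33 ± 1.67 and 7.62 ± 0.43) were among the 16.2% of genes lower by as much. PRDM14 at 0.99 and DPPA2 at 0.12 stayed under that size, PRDM14 only narrowly. PRDM14 was at 1.08 with median-of-ratios scaling, 1.18 by the log2 of the mean FPKM and 1.89 by the median over cells. It was at 0.88 with a pseudocount of 10 and at 2.59 without SOX17-led cells. With the higher title numbers PRDM14 was at 2.55 and with the lower ones at -0.86. The difference of ZSCAN10 alone exceeded the larger SD. These stage means mix the ranges, since SOX17-led cells were found in the late and hatching stages only, and without them the difference was 0.03 for SOX15 and -0.44 for L1TD1. By the median over cells these were -0.62 and -0.68, by the log2 of the mean FPKM -0.38 and -0.84, and with the higher title numbers -0.43 and -0.31. UTF1 was at 0.93 with a pseudocount of 10.

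Late NANOG-led cells held more of all 6 genes than late SOX17-led cells. All 6 differed by at least 1, where 9.56% of the 9781 genes did so in that direction and 9.35% in the other. The cells were selected on NANOG and SOX17, and the members were chosen with their link to NANOG known, so nothing is read from that count. PRDM14 had a lowest, median and highest FPKM of 0.61, 117 and 364 in the 29 NANOG-led cells, against 0, 0.14 and 2.53 in the 16 SOX17-led cells. The mean log2 levels were 6.40 ± 1.86 in NANOG-led and 0.39 ± 0.47 in SOX17-led cells, a difference of 6.01. In 1 NANOG-led cell PRDM14 was at only 0.61 FPKM, and that cell held both NANOG at 1005 FPKM and SOX17 at 62.7 FPKM.

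SOX15 stood at 2.26, 217 and 566 FPKM (lowest, median, highest) in late NANOG-led cells, against 0.13, 0.85 and 145 in late SOX17-led cells, with a difference of 5.81 in mean log2 level. In the SOX17-led range SOX15 had a low median with a few high cells: 1 such cell held 145 FPKM, another 101 FPKM and another 8.06 FPKM. The cell at 101 FPKM had SOX17 at 270 FPKM and NANOG at 1.24 FPKM, so a high SOX15 level was also found in a cell with little NANOG. ZSCAN10 was at 0.09, 48.3 and 130 FPKM in NANOG-led cells, against 0, 0.07 and 0.41 in SOX17-led cells, a difference of 4.78. Detection of ZSCAN10 was limited to 26 of 29 NANOG-led cells among the late cells, with 0 of 7 in between and 0 of 16 SOX17-led cells.

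UTF1 stood at 0, 10.7 and 31.6 FPKM in late NANOG-led cells, against 0, 0 and 0.35 in late SOX17-led cells, and its mean log2 level differed by 3.04. No SOX17-led late cell reached an FPKM of 1. DPPA2 was at 8.19, 14.96 and 20.5 FPKM in NANOG-led cells, against 0, 1.39 and 6.74 in SOX17-led cells, a difference of 2.78. DPPA2 was the only member whose late NANOG-led and SOX17-led cells did not overlap. NANOG-led cells lay wholly above SOX17-led cells for only 6 genes (0.0613% of 9781), which were DPPA2, KHDC3L, OOEP, POU5F1, SLC18B1 and NANOG, the last of which set the ranges. DPPA2 thus separated the ranges at 2 log2 units without overlap, although it was the second lowest member by median. Its NANOG-led cells were spread by an SD of only 0.38. The margin was narrow, and the separation did not hold with ranges at 1 log2 unit. A cell in between then counts as NANOG-led with 4.51 FPKM of DPPA2, under the 6.74 FPKM of the highest SOX17-led cell.

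L1TD1 showed the smallest difference of the 6, with 48.4, 126 and 190 FPKM in late NANOG-led cells, against 15.8, 44.5 and 114 in late SOX17-led cells. Its mean log2 levels were 6.95 ± 0.45 and 5.61 ± 0.74, a difference of 1.33, or 0.76 with sides by the other markers, and all 16 SOX17-led cells still held it. An RNA-binding member was therefore present in SOX17-led cells in which PRDM14, ZSCAN10 and UTF1 were near 0.

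**Figure D2:**
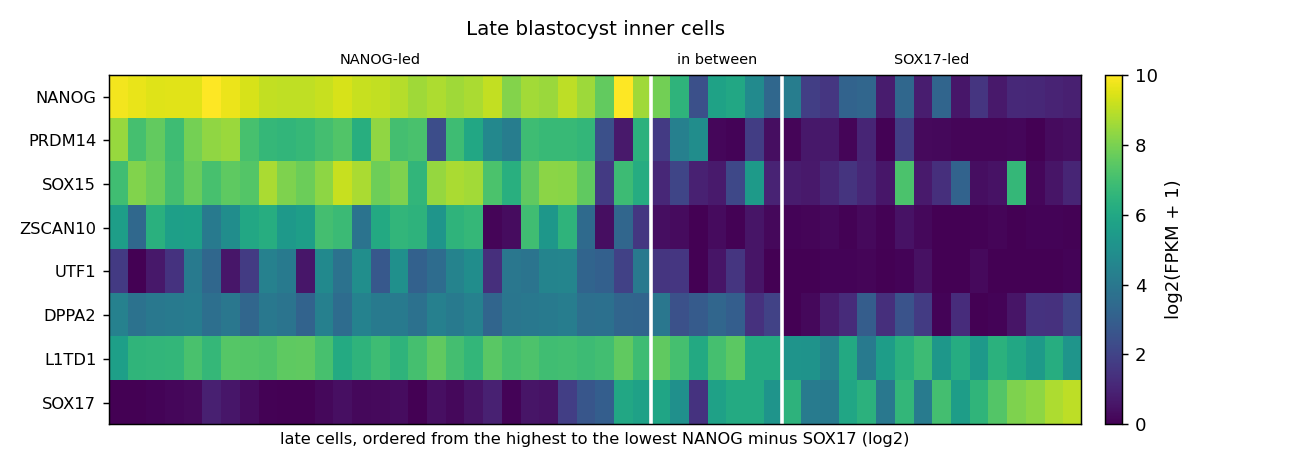
The 52 late cells as columns, ordered from the highest to the lowest difference of NANOG minus SOX17, with NANOG, the 6 genes and SOX17 as rows and colour giving log2(FPKM + 1). White lines divide the 29 NANOG-led, 7 in between and 16 SOX17-led cells; ZSCAN10 and UTF1 are dark right of the first line while L1TD1 stays bright across it.

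The 7 late cells in between differed by gene. L1TD1 had a median of 132 FPKM there, close to the 126 FPKM of NANOG-led cells, and DPPA2 was detected in all 7 at a median of 6.38 FPKM. SOX15 had a median of 1.17 FPKM, ZSCAN10 of 0.22 FPKM and UTF1 of 0.48 FPKM, all far under the NANOG-led medians. PRDM14 had a median of 2.27 FPKM and was detected in 4 of the 7 cells. DPPA2 was lower there than in NANOG-led cells, at a mean log2 level of 2.71 ± 0.84 against 3.89 ± 0.38. L1TD1 alone of the 6 stood at the level of NANOG-led cells, at 6.79 ± 0.66 against 6.95 ± 0.45. Such cells were few, and 9 late cells lay within 1 log2 unit of a boundary.

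Values beside the boundary show the same mixture. The NANOG-led cell nearest to the boundary (NANOG minus SOX17 of 2.86) held 84.5 FPKM of PRDM14, 72.5 of SOX15, 2.08 of ZSCAN10, 15.3 of UTF1, 8.33 of DPPA2 and 117 of L1TD1. The nearest cell outside it (1.99) held 2.27 FPKM of PRDM14, 1.17 of SOX15, 0.28 of ZSCAN10, 1.95 of UTF1, 14.4 of DPPA2 and 190 of L1TD1. At the other boundary, the SOX17-led cell at -2.20 held 35.3 FPKM of L1TD1 and at most 0.68 FPKM of any other member.

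In the hatching stage all 6 members were at least 1 higher in the 19 NANOG-led than in the 7 SOX17-led cells, where 33.7% of genes were higher by at least 1. The difference was larger than in late cells for SOX15, ZSCAN10, UTF1 and L1TD1 and not for PRDM14 and DPPA2, and no test of this was made. None of the 6 overlapped between these ranges, where 2% of genes lay wholly above in NANOG-led cells. As for the late cells, nothing is read from these counts, given how the cells and the members were chosen. PRDM14 stood at 20.8, 117 and 216 FPKM (lowest, median, highest) in NANOG-led cells, against 0.42, 0.61 and 0.93 in SOX17-led cells, a difference of 5.96 in mean log2 level. SOX15 had 51.4, 214 and 380 FPKM in NANOG-led cells, against 0.20, 1.18 and 3.18 in SOX17-led cells, a difference of 6.24. The high SOX15 values found in SOX17-led cells of the late stage were not found in the 7 of the hatching stage.

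ZSCAN10 stood at 31.7, 105 and 144 FPKM in hatching NANOG-led cells, against 0, 0.64 and 0.74 in hatching SOX17-led cells, a difference of 5.96. UTF1 had 12.5, 48.4 and 109 FPKM in NANOG-led cells, against 0, 0.16 and 7.15 in SOX17-led cells, where 1 of 7 cells held it, a difference of 4.92. DPPA2 had 7.27, 12.6 and 19.5 FPKM in NANOG-led cells, against 0.08, 1.24 and 3.24 in SOX17-led cells, a difference of 2.69. L1TD1 had 90.8, 144 and 195 FPKM in NANOG-led cells, against 0.999, 25.4 and 59.9 in SOX17-led cells, so that its difference was 3.19 on the log2 scale. The hatching SOX17-led cells also held fewer genes at an FPKM of 1 (a median of 5680, against 6940 in NANOG-led cells) and fewer reads (9.74 M, against 13.2 M). Over all 9781 genes the median difference was 0.45, and scaling by median-of-ratios size factors brought it to 0.15. All 7 have title numbers in the lower series within that stage, as the numbers were divided here. The part of depth and of the numbers in these differences was not tested.

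**Figure D3:**
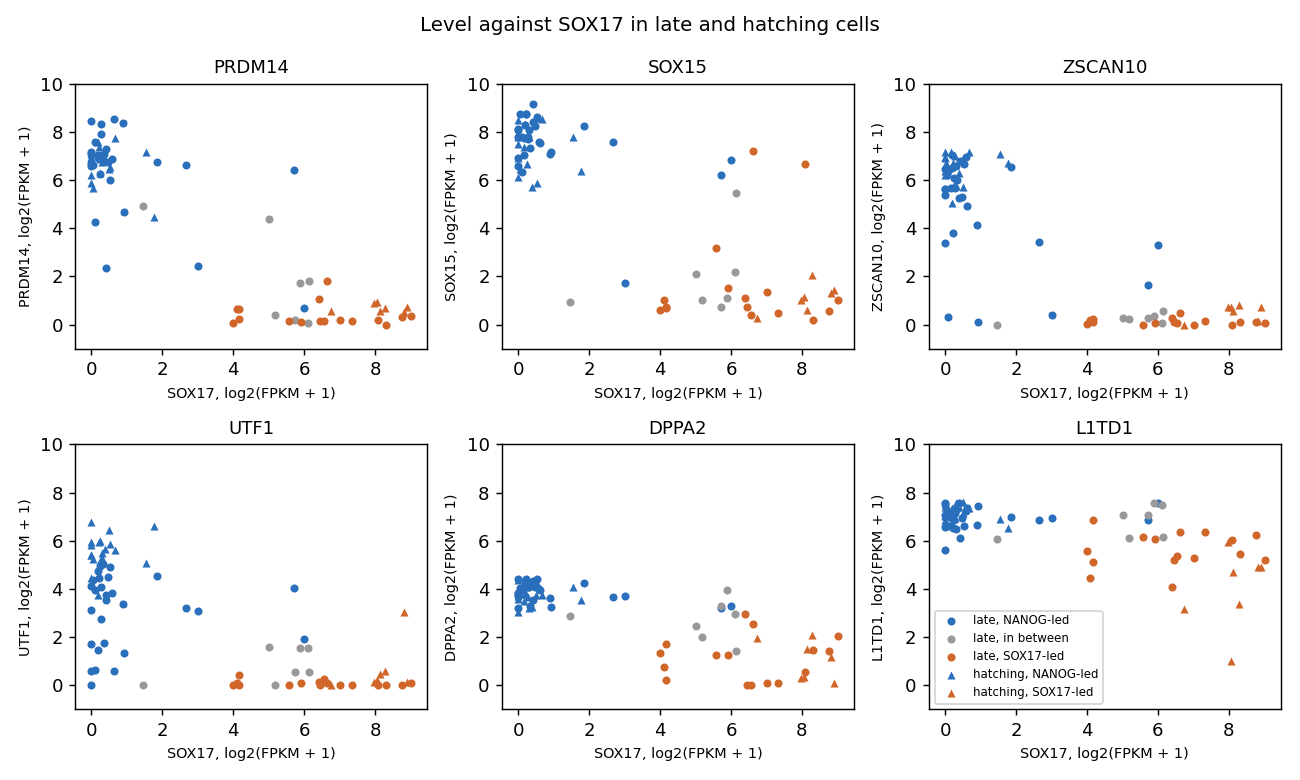
Level of each gene against SOX17 in late and hatching cells, both as log2(FPKM + 1), coloured by range and with circles for late and triangles for hatching cells. Most NANOG-led cells lie at the left and higher, but late ones with SOX17 at 62.7 and 51.5 FPKM lie as far right as SOX17-led cells. SOX17-led cells lie at the right and mostly lower, with late SOX15 cells at 145 and 101 FPKM standing above the others. L1TD1 slopes more gently than the other genes, with a mean of 5.61 in late SOX17-led cells.

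Between hatching and late SOX17-led cells, L1TD1 differed by -1.61 on the log2 scale (3.998 ± 1.63 in 7 hatching and 5.61 ± 0.74 in 16 late cells). Of all genes, 30.1% were lower by at least 1 in that comparison, and the median over all genes was -0.39. By the median over cells the L1TD1 difference was -0.78, under the size of 1. The other 5 members differed by -0.59 to 0.58, with medians of at most 1.39 FPKM in both stages. ZSCAN10, at 0.41, stayed below an FPKM of 1 in all 23 SOX17-led cells.

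Within the NANOG-led range the members took separate courses over the stages. Late minus middle, ZSCAN10 was higher by 4.67 (4.90 ± 2.06 in 29 late and 0.23 ± 0.62 in 38 middle cells), PRDM14 by 2.74 (6.40 ± 1.86 and 3.66 ± 2.69) and UTF1 by 1.41 (3.12 ± 1.52 and 1.71 ± 1.17). Of all genes, 5.86% were higher by at least 1. SOX15 at 0.80, DPPA2 at 0.88 and L1TD1 at -0.28 stayed under that size. UTF1 was also under it with the lower title numbers, at 0.71, and at a pseudocount of 10, at 0.62, and stood at 2.33 with the higher numbers. PRDM14 was at 1.49 with sides by the other markers. The NANOG-led range held 38 of 39 middle cells but only 29 of 52 late cells. NANOG itself, which set the ranges, was higher by 1.43 in late NANOG-led cells, and its part in this step was not tested.

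Hatching minus late, within the NANOG-led range, the same comparison gave UTF1 2.46 (5.58 ± 0.71 in 19 hatching and 3.12 ± 1.52 in 29 late cells) and ZSCAN10 1.58 (6.49 ± 0.65 and 4.90 ± 2.06), where 8.75% of genes were higher by at least 1. PRDM14 differed by 0.26, L1TD1 by 0.24, DPPA2 by -0.14 and SOX15 by -0.17. UTF1 exceeded the larger SD and ZSCAN10 did not. The ZSCAN10 difference was under 1 with the lower title numbers (0.38), with sides by the other markers (0.81) and by the log2 of the mean FPKM (0.88). The lowest hatching NANOG-led cell held 31.7 FPKM of ZSCAN10, while 3 of 29 late NANOG-led cells held 0.30 FPKM or less.

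Over the whole span within the NANOG-led range, hatching minus early, ZSCAN10 was higher by 6.09, UTF1 by 2.61 and PRDM14 by 2.59, where 13.7% of genes were higher by at least 1. ZSCAN10 was the only member whose cells did not overlap, with at least 31.7 FPKM in 19 hatching NANOG-led cells and at most 11.98 FPKM in 44 early cells. SOX15 differed by 0.03 (7.36 ± 0.92 in hatching and 7.33 ± 0.82 in early cells), DPPA2 by 0.85 and L1TD1 by -0.44. The spread of PRDM14 was smaller in hatching NANOG-led cells, with an SD of 0.75 against 2.14 in early cells, and no hatching NANOG-led cell was without it.

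**Figure D4:**
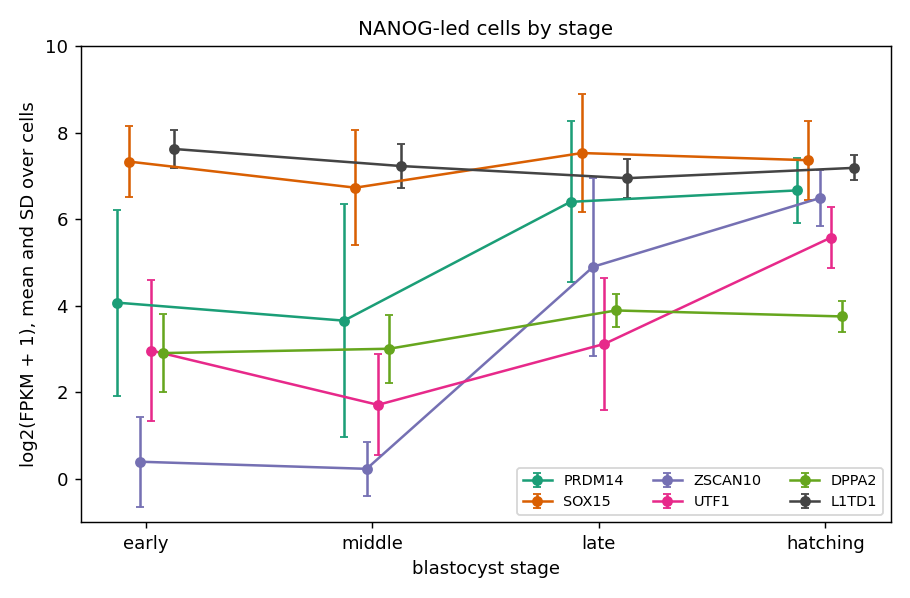
Mean and SD over NANOG-led cells of log2(FPKM + 1) for the 6 genes at the early (44 cells), middle (38), late (29) and hatching (19) stages. ZSCAN10 stands at 0.40 in early and 6.49 in hatching cells, UTF1 has its lowest mean of 1.71 in middle cells, and SOX15 and L1TD1 remain between 6.73 and 7.62.

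Detection of all 6 genes in the same cell was rare before the late stage. All 6 were at an FPKM of 1 or more in 3 of 44 early cells, 0 of 38 middle, 21 of 29 late and 19 of 19 hatching NANOG-led cells. The median number detected was 5 in early and middle NANOG-led cells, 6 in late and hatching NANOG-led cells, 4 in late cells in between, and 2 in SOX17-led cells of both stages. ZSCAN10 was the gene most often missing in early cells. No late cell in between and no SOX17-led cell held all 6.

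Cells with more of a given member did not in general hold more of the others within the NANOG-led range. Over the 15 pairs of members, Pearson's r of log2(FPKM + 1) ran from -0.25 to 0.57 with a median of 0.06 in the 44 early cells, and from -0.36 to 0.55 with a median of 0.09 in the 39 middle cells. In the 29 late NANOG-led cells it ran from -0.43 to 0.62 with a median of 0.21, and in the 19 hatching NANOG-led cells from -0.36 to 0.49 with a median of 0.07. In the 16 late SOX17-led cells, where several members were near 0, it ran from -0.15 to 0.89 with a median of 0.27. The highest of these was PRDM14 with ZSCAN10 (Spearman 0.55). No r is given over all late or all hatching cells, since these fall into the ranges. Such values share the library of each cell and its depth, and are descriptions without a test.

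Some pairs stood at the ends of these ranges. DPPA2 and L1TD1 had an r of 0.57 in early cells (Spearman 0.42). It was 0.65 in early cells of lower title number (Spearman 0.37) and 0.26 in those of higher number (Spearman 0.34). The early cell with the least NANOG, 6.45 FPKM, also held the least L1TD1, 58.5 FPKM, with DPPA2 at 0, and has a lower number. PRDM14 and DPPA2 had 0.55 in middle cells (Spearman 0.58), and SOX15 and ZSCAN10 0.62 in late NANOG-led cells (Spearman 0.52). PRDM14 and L1TD1 had -0.43 in late NANOG-led cells (Spearman -0.35). Against NANOG, UTF1 had an r of 0.40 in early cells, 0.48 in middle cells, -0.45 in late NANOG-led cells and 0.04 in hatching NANOG-led cells, so the sign was not the same in all stages. In early cells it was -0.02 in the 19 cells of higher title number and 0.60 in the 25 of lower number (Spearman 0.16), series whose UTF1 levels differ. PRDM14 against NANOG had 0.20, 0.44, 0.33 and 0.14 in the same cells. In the late NANOG-led cells with the highest difference of NANOG minus SOX17, UTF1 was at 2.27, 0 and 0.55 FPKM, while NANOG was at 903, 807 and 722 FPKM.

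Title numbers were divided here into a lower and a higher series within each stage. The last titles of the lower series were E28, M29, L22 and H18, and titles starting with HSM or HSL were in neither. The labels name no such series and do not say what the numbers mean. Some members differed between the series. Among early cells UTF1 had a mean log2 level of 1.73 ± 1.35 in the 19 cells of higher number and 3.90 ± 1.14 in the 25 cells of lower number. Among middle NANOG-led cells DPPA2 had 2.28 ± 0.80 in 12 cells of higher and 3.32 ± 0.51 in 25 cells of lower number. PRDM14 had 2.74 ± 2.69 and 4.03 ± 2.68 in these cells. The early difference of UTF1 between number series was as large as several stage differences. With the lower numbers alone, over all ranges, UTF1 was lower in hatching than in early cells, at -1.05. Those hatching cells were 7 SOX17-led and 5 NANOG-led, while all early cells were NANOG-led. Within NANOG-led cells of lower number, UTF1 was higher in hatching (5.94 ± 0.62) than in early cells (3.90 ± 1.14). With the higher numbers alone, where no SOX17-led hatching cell is found, it was higher by 3.72.

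Among late NANOG-led cells ZSCAN10 had 4.30 ± 2.42 in the 18 cells of higher number and 5.97 ± 0.45 in the 9 cells of lower number. All 3 late NANOG-led cells below an FPKM of 1 belonged to the higher series. In hatching NANOG-led cells ZSCAN10 was even between the series, with 6.53 ± 0.55 in 14 cells of higher and 6.35 ± 0.93 in 5 cells of lower number. With the lower numbers alone, over all ranges, hatching minus late was -0.14 for ZSCAN10 and -0.89 for PRDM14. This comparison holds all 7 SOX17-led hatching cells but only 5 of the 19 NANOG-led ones.

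The genes whose pattern was most like each member were sought among 9514 genes with a mean FPKM of at least 1 that were detected in at least 10% of cells, by Pearson's r of log2(FPKM + 1) over all 161 cells. These values rest largely on the split between NANOG-led and SOX17-led cells and on the stage, so r within the 29 late NANOG-led cells is given beside them. ZSCAN10 had the closest companions, FXYD5 (an ion transport regulator) at 0.91 and FGF13 (an intracellular FGF homologue) at 0.91, followed by SSB (an RNA-binding protein) at 0.84. Within late NANOG-led cells these were 0.74, 0.72 and 0.65. MARCKS, at -0.83, was least like ZSCAN10 over all cells and stood at -0.77 within late NANOG-led cells.

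SOX15 was most like NANOG (0.77 over all cells, 0.40 within late NANOG-led cells), SLC29A1, a nucleoside transporter (0.77 and 0.13), and ZYG11A (0.73 and 0.70). PRDM14 was most like NANOG (0.69 and 0.33), KHDC3L, of the subcortical maternal complex (0.68 and 0.46), and DPPA2 (0.62 and 0.23), another of the 6 genes. UTF1 was most like DPPA5 (0.68 and 0.27), KHDC3L (0.68 and 0.29) and SSB (0.67 and 0.48). DPPA2 was most like KHDC3L (0.78 and 0.45), NANOG (0.78 and -0.03) and DPPA5 (0.77 and 0.34). L1TD1 stood apart, being most like POU5F1 (0.72), SLC18B1 (0.71) and CDH1 (0.69), at -0.30, 0.01 and -0.06 within late NANOG-led cells.

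The genes least like the members were mostly those of basement membrane and primitive endoderm. SOX15 stood at -0.80 with NID2, -0.79 with COL4A1 and -0.78 with IGF1, and within late NANOG-led cells at -0.65, -0.57 and -0.64. L1TD1 stood at -0.77 and DPPA2 at -0.66 with RSPO3, a WNT signalling ligand, although both were positive within late NANOG-led cells, at 0.16 and 0.26. Centring each stage on its mean kept NANOG first for PRDM14 (0.71) and SOX15 (0.78), KHDC3L first for DPPA2 (0.79), POU5F1 first for L1TD1 (0.76) and DPPA5 first for UTF1 (0.76). For ZSCAN10 it put FGF13 (0.84) ahead of FXYD5 (0.84).

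Reads of overlapping genes cannot be assigned with certainty, since the sources used here do not say whether strand was used in counting. In the RefSeq gene order of the rhesus genome (T2T-MMU8v2.0), SOX15 overlaps MPDU1 and ZSCAN10 overlaps ZNF205. MPDU1 had mean log2 levels of 6.27 in late NANOG-led and 5.84 in late SOX17-led cells, and its r with SOX15 was 0.17 in the 29 late NANOG-led cells. MPDU1 thus showed no such split as SOX15. ZNF205 had a median of 0 FPKM in late NANOG-led cells and was detected in 2 of 29, where ZSCAN10 had 48.3 FPKM. UTF1 lies next to VENTX, a homeobox gene on the epiblast marker list, which had 7.16 ± 1.03 in late NANOG-led and 1.18 ± 1.69 in late SOX17-led cells. Within late NANOG-led cells their r was -0.31.

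Other genes of the families and pathways of the members were described from lists that had been chosen with earlier results of these data known. A listed gene counts as measured here at a mean FPKM of at least 1, and the median difference over all 9781 genes was 0.02 for late NANOG-led minus SOX17-led cells and -0.12 for hatching minus early cells. Of 4 measured SOX family genes other than SOX15 (of 17 listed, 15 with a row), 2 were higher and 1, SOX17, lower in late NANOG-led than in late SOX17-led cells, with a median of 0.79. SOX17 set the ranges, so its place in this count and median was fixed by the choice of cells. SOX2 had a mean log2 level of 3.11 ± 1.81 in late NANOG-led and 0.04 ± 0.13 in late SOX17-led cells, a difference of 3.07, and SOX4 differed by 1.36. Of 4 measured PRDM genes (of 13 listed), none differed by 1 or more between these ranges, with a median of -0.60, and PRDM1, a germ cell and endoderm factor, was higher by 1.23 in hatching than in early cells. PRDM1 lay at 0.14 ± 0.46 in NANOG-led and 4.65 ± 2.08 in SOX17-led hatching cells, opposite to PRDM14. Of 10 measured ZSCAN genes (of 19 listed), ZSCAN16 was higher by 1.76 in hatching than in early cells with none lower by 1 or more and a median of 0.18. Between the late ranges ZSCAN16 stood at 1.11 and ZSCAN9 at -1.48, with a median of 0.17.

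Of 12 measured partners and targets of PRDM14 (of 14 listed), 2 were higher and 3 lower by at least 1 in late NANOG-led than in late SOX17-led cells, with a median of -0.37. CBFA2T2, its co-repressor, had 4.39 ± 0.98 in NANOG-led and 1.12 ± 1.16 in SOX17-led cells, a difference of 3.27. TET2, which oxidises methylcytosine, stood at -2.59 and FGFR2 at -1.29. In hatching minus early cells 5 were higher and 2 lower, with a median of 0.11, among them DNMT3B at 2.42, FGFR1 at 2.48 and FGFR2 at -2.66. The FGF receptor genes FGFR1 and FGFR2 thus lay on opposite sides.

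Of 12 measured germ cell genes (of 14 listed), 4 were higher and 4 lower by at least 1 in late NANOG-led than in late SOX17-led cells, with a median of -0.07. DND1, an RNA-binding germ cell protein, had 7.04 ± 1.71 in NANOG-led and 2.89 ± 1.90 in SOX17-led cells, and TFAP2C had 3.81 ± 2.07 and 0.16 ± 0.21. Among 6 measured DPPA and genome activation genes (of 12 listed, 8 with a row), 3 were higher, DPRX by 4.93, DPPA5 by 3.59 and DPPA3 by 1.28, and none lower, with a median of 1.13. In hatching minus early cells DPRX stood at -5.67 and ARGFX at -3.29, with a median of -0.78. DPPA4, the partner of DPPA2, has no row under that symbol and could not be analysed here. Of 10 genes that are LIN28 proteins or RNA-binding companions of L1TD1, 4 were higher in hatching than in early cells, LIN28B by 2.85, LIN28A by 1.75, IGF2BP3 by 1.68 and IGF2BP2 by 1.62. In the same comparison PABPC1 stood at -1.05 and L1TD1 at -1.29, and the median of the 10 was 0.76. Between the late ranges IGF2BP2 alone passed a size of 1, at 2.54, with a median of 0.06. LIN28A was at 8.14 ± 0.80 in late NANOG-led and 8.85 ± 0.73 in late SOX17-led cells, while L1TD1 was higher in the NANOG-led ones.

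Of 20 measured genes of the pluripotency network (of 22 listed), 9 were higher and 4 lower by at least 1 in late NANOG-led than in late SOX17-led cells, with a median of 0.55, where 9.56% and 9.35% of all genes were. GDF3 was higher by 5.94, TDGF1 by 4.99 and NR5A2 by 3.11, while OTX2 stood at -3.56 and TBX3 at -3.46. In hatching minus early cells 8 were higher and 5 lower, with a median of 0.19, where 11.3% and 16.2% of all genes were. ESRRB at -5.21 and KLF4 at -4.03 lay opposite to ZSCAN10 and UTF1.

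Marker lists were set beside the ranges. The epiblast list holds NANOG and the primitive endoderm list holds SOX17, the genes that set the ranges. The sums and counts of these lists were therefore partly fixed by the choice of cells. NANOG alone lay at 195 to 1040 FPKM in late NANOG-led cells. The summed FPKM of 10 epiblast markers was 219 to 1895 in late NANOG-led and 1.42 to 50.5 in late SOX17-led cells, and 8 of the 10 genes were higher by at least 1, with a median of 3.89. That of 14 primitive endoderm markers was 17.7 to 4449 in late NANOG-led and 2426 to 16106 in late SOX17-led cells, so these sums overlapped, and all 14 genes were lower by at least 1, with a median of -4.76. With NANOG and SOX17 left out of the lists, the 29 late NANOG-led cells divided into 24 on the epiblast side and 5 on the other, where all 7 cells in between and all 16 SOX17-led cells lay. In hatching cells the sides were those of the ranges, 19 and 7. Of the NANOG-led cells, 10 of 44 early and 21 of 38 middle cells lay on the side of the endoderm markers. Of 11 measured trophectoderm markers, 1 was higher and 1 lower, and the sum was 1624 to 8245 in late NANOG-led and 1493 to 7037 in late SOX17-led cells. All 10 oocyte and cumulus markers had a median of 0 in each range. The part of other cell types in the members' levels was not tested.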

How the data were processed

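Single inner cells were sequenced after PCR amplification of their cDNA, per the labels' protocols. The authors deposited 1 table of FPKM values for 16049 gene symbols and 161 cells, and every column matched a cell's title. FastQC, TopHat2 2.1.0, HTSeq and DESeq2 are named, without role or order, per the submitters' processing notes. The genome build, the annotation and any use of strand were not given in the sources used here. Low FPKM values come in steps. Comparing them between cells gave whole reads for all 13857 genes above 0 in at least 2 cells (100%), with a tolerance of 1e-08 (relative) or 1e-05 (absolute). These reads were used for depth only. PCR reads carry no molecular identifiers.

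The labelled stage grouped the cells, as did NANOG and SOX17. Means, SDs over cells, correlations and shares with exact Clopper-Pearson 95% intervals were computed on log2(FPKM + 1) or at an FPKM of 1, and no test was made because each stage is 1 sample. No doublet caller was run on these singly picked cells. The members, gene lists and comparisons were chosen with earlier results of these data known. Named genes are the members, NANOG, SOX17, for each member the 3 genes of highest and lowest correlation over all cells and with stages centred, of which some are given, and from each list up to 4 genes of largest difference. The neighbouring genes, the 6 genes without overlap, and SOX4, PRDM1 in hatching ranges, FGFR1 and LIN28A between ranges were named after their values were seen. RefSeq gave gene order only; L1TD1 has no entry in the table of gene order used. Python 3.11.15 with pandas 2.3.3, numpy 2.4.6, scipy 1.17.1 and matplotlib 3.10.9 was used, and the scripts were tested on simulated data.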

Additional observations from a re-analysis of the deposited data

How the results depend on the processing

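The differences of the 6 genes between stages and ranges were recomputed under each alternative. With median-of-ratios scaling all 60 values, and with ranges at 1 or 3 log2 units all 36 values each, moved by under 1 SD over cells. No difference of at least 1 lost that size under these settings. PRDM14 in hatching minus early cells, at 0.99, passed it with the scaling, at 1.08. Over all settings, 33 values of differences under 1 in size turned sign, to between -0.87 and 0.70, among them SOX15 in hatching minus late NANOG-led cells (0.22 with ranges at 1) and 7 values with the lower title numbers. Among differences of at least 1, signs reversed for PRDM14 (-0.89) and ZSCAN10 (-0.14) in hatching minus late cells and for UTF1 in hatching minus early cells (-1.05) with the lower title numbers, and for SOX15 in hatching minus early cells without SOX17-led cells (0.031). UTF1 in hatching minus early cells was 3.72 with the higher title numbers, which hold no hatching SOX17-led cell and gave 48 values. All 7 hatching SOX17-led cells have lower title numbers. ZSCAN10 in hatching minus late cells was 5.14 by the median over cells. Most of the other large shifts came from the pseudocount, as the log2 scale of low values implies. At pseudocounts of 0.1 and 10, ZSCAN10 gave 7.20 and 2.19 for late minus middle and 8.88 and 3.21 for hatching minus early NANOG-led cells. For late NANOG-led minus SOX17-led cells they gave 7.97 and 3.33 for PRDM14, 5.55 and 0.99 for UTF1, 7.17 and 2.22 for ZSCAN10, and 4.01 and 1.06 for DPPA2. For the same ranges of hatching cells they gave 7.13 and 3.39 for PRDM14, 6.81 and 2.39 for UTF1, 7.59 and 3.25 for ZSCAN10, and 3.76 and 0.998 for DPPA2, with 3.95 for SOX15 at 10. For hatching minus late SOX17-led cells, PRDM14 gave 1.17 and ZSCAN10 1.41 at 0.1, and ZSCAN10 0.053 at 10. There PRDM14 gave -0.87 with sides by the other markers and SOX15 -2.91 by the log2 of the mean FPKM. The cause of the shifts with title numbers and sides was not tested. No paired analysis was possible because no cell shares a label with a cell of another stage. A planned description of promoters was not run.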
